A study of Mus musculus with 8 samples.

Results

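The comparison described here is the difference between the hepatectomy responses of 2 genotypes: the change at 24 h against 0 h in livers labelled Tob1 null, minus the same change in wild type livers. It uses all 8 arrays of the series and all 45037 probe sets that are not controls, of 45101 in the table. Probe sets are the groups of short probes that read 1 transcript. After a filter on low values, and with 1 probe set for each gene, 14450 genes were tested. A positive difference means that the null-labelled response lay above the wild type response, whether the gene went up or down in either.

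Liver RNA of male C57BL/6 mice aged 7 to 10 weeks was hybridised to Affymetrix mouse arrays, 2 arrays for each of 4 groups. The groups were Tob1 null liver at 24 h, Tob1 null liver at 0 h, wild type liver at 24 h and wild type liver at 0 h, counted from a partial hepatectomy in which the median and left lateral lobes were tied off. The null animals came from 1 mutant line kept on the C57BL/6 background. Each array carried the pooled RNA of 3 animals, so every error below measures the spread between pools and not between animals. The labels name no sham-operated group and give no clock time of tissue collection.

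Tob1 is a member of the BTG/TOB family of antiproliferative proteins. It binds the CCR4-NOT deadenylase, the complex that shortens the poly(A) tails of mRNAs, and it restrains entry into S phase when overproduced in cultured cells. After partial hepatectomy the mostly quiescent hepatocytes of the remnant re-enter the cell cycle while the liver keeps supplying glucose, bile acids and plasma proteins, and lipid accumulates in the remnant for a time. In mice DNA synthesis in hepatocytes follows a lag, so whether replication genes differ between genotypes at 24 h is the question that the series title, which calls Tob1 a repressor of regeneration, puts to these arrays.

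The targeted gene went against the genotype labels in its brighter probe set. The brighter Tob1 probe set read 10.66 and 10.58 on the log2 scale in null-labelled liver at 24 h and 11.10 and 11.03 at 0 h. In wild type liver it read 9.87 and 10.20 at 24 h and 10.46 and 10.53 at 0 h. All 4 null-labelled values lay above all 4 wild type values. The responses were alike in size, at -0.44 in null-labelled and -0.46 in wild type liver, and the difference between them was 0.02 ± 0.21 (SE, 2 arrays per group; limma adjusted p = 0.982). A dim second probe set read 2.78 and 3.83 in null-labelled liver at 24 h and 2.65 and 4.06 at 0 h, against 4.27 and 4.96 in wild type liver at 24 h and 5.19 and 4.02 at 0 h. Its null-labelled values were the lower ones, apart from an overlap at 0 h. The sources used here do not place the deletion relative to these probes, so neither reading checks it. The groups are therefore called null-labelled and wild type, and every direction below rests on those labels.

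Of the arrays as a whole, replicates correlated at 0.968 to 0.977 over the genes tested. The second null-labelled array at 24 h had the lowest median and 25th percentile before normalization. The ratio of 3' to 5' control probe sets, a sign of RNA quality, differed between the responses by -0.05 ± 0.20 for actin and -0.20 ± 0.12 for Gapdh on the log2 scale. Both null-labelled 0 h arrays stood apart in it. For Gapdh they read 0.538 and 0.509, against at most 0.283 in the other arrays, and for actin 1.59 and 1.54, against at most 1.40. Its part in the differences below that rest on the null-labelled 0 h level was not tested. Among these were the differences of Dbp, Il22ra1, Fabp7, Per1, Foxa1, Onecut1, Ddit3, Plb1 and Slc35f3. Summed on the linear scale, the 18 hepatocyte markers ranged over 131400 to 132100 in null-labelled liver at 24 h and 140000 to 141000 at 0 h, against 134200 to 135300 in wild type liver at 24 h and 136600 to 141500 at 0 h. In such bulk tissue, fewer cells of a type and less RNA per cell cannot be told apart.

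No gene passed the test of the difference. With limma and Benjamini-Hochberg adjustment 0 of 14450 genes had an adjusted p under 0.05 (0% called), and the smallest adjusted p was 0.301. An unadjusted p under 0.05 was reached by 1244 genes (8.61%), of which 660 were higher in the null-labelled response (4.57%) and 584 lower (4.04%). Over all genes the difference had a median of 0.000216 and an SD of 0.5616, against a median SE of 0.29. The SE depended on the level, with a median of 0.53 in the dimmest of 4 equal bins of genes and 0.21 in the brightest. Single responses were called far more often: 2121 genes passed in null-labelled liver (14.7%; 7.45% up and 7.23% down) and 1331 in wild type liver (9.21%; 4.13% up and 5.08% down). A further count uses no model of the variance. In 3624 genes (25.1%) every possible null-labelled response, from either 24 h array and either 0 h array, lay on 1 side of every possible wild type response, 1909 higher (13.2%) and 1715 lower (11.9%). In 331 genes (2.29%) all null-labelled arrays went up and all wild type arrays down, and in 310 (2.15%) the opposite held. With 2 arrays a group such orders also arise often where nothing differs. The share to be found without a difference was not worked out, so these counts are descriptions only.

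The 1244 genes included every shape of response, with the largest shares where the mean responses had opposite directions. Among them 375 had a null-labelled mean that went up and a wild type mean that went down (19.1% of all genes of that shape), and 364 the opposite (18.4%). A further 194 went up in both genotypes and more in null-labelled liver (7.23%), and 139 went down in both and more in null-labelled liver (4.58%). The remaining 81 and 91 went up or down in both and more in wild type liver (3.66% and 3.52%). A difference between responses favours opposite directions by construction, so these shares are no further result. The gap between genotypes was larger at 24 h than at 0 h in 703 of the 1244, and larger at 0 h in 541 (43.5%, against 46.8% of all genes). Levels at both times are therefore given below for many of the named genes, while for others only the difference is given.

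**Figure D1:**
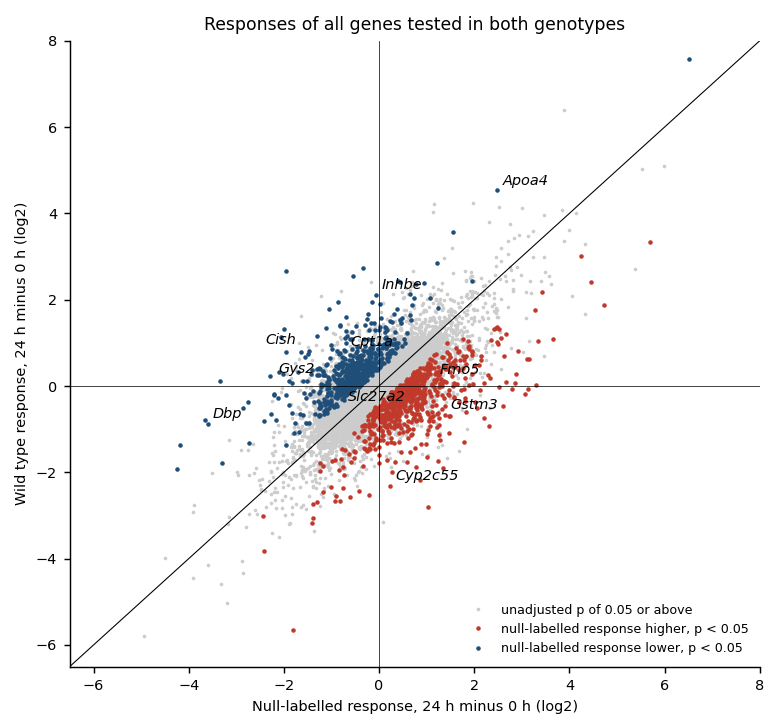
Each point is 1 of the 14450 genes, with its change at 24 h against 0 h (log2) in null-labelled liver on the horizontal axis and in wild type liver on the vertical axis. Red and blue points are the 660 higher and 584 lower genes with an unadjusted p under 0.05, none of which passed after adjustment, and the line marks equal responses. Gene names mark the 10 genes called with a trended and robust prior.

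A different model of the variance called 10 genes. With a prior variance that follows the level of the gene and is robust to outlying genes (limma's trended and robust setting), 3 genes were called higher in the null-labelled response and 7 lower, all of them well above the filter limit of 3.60. In the fit described above none of them passed, so they are given here as the genes whose call depends on how the spread is modelled. The 3 higher genes encode enzymes of drug and lipid oxidation or conjugation. Most of the 7 lower genes belong to fuel metabolism, the circadian clock or cytokine signalling.

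Gstm3, a mu-class glutathione S-transferase, had the smallest p of these. It read 12.46 and 12.30 in null-labelled liver at 24 h and 10.95 and 11.04 at 0 h, against 9.68 and 9.93 in wild type liver at 24 h and 10.34 and 10.60 at 0 h. Every null-labelled array was higher at 24 h, and every wild type array was lower at 24 h. The gene rose by 1.39 ± 0.16 in null-labelled liver (adjusted p = 0.0114), while the wild type change was -0.66 ± 0.16 (adjusted p = 0.0546). The difference was 2.05 ± 0.22 (limma adjusted p = 0.301, and 0.0112 with the trended and robust prior). Its probe set carries the suffix that Affymetrix gives to probes shared by several transcripts, so signal from related mu-class genes cannot be kept apart. A second Gstm3 probe set gave 2.55.

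Cyp2c55, a cytochrome P450 that oxidises arachidonic acid, stood apart through its wild type change. It read 9.06 and 8.75 in null-labelled liver at 24 h and 8.41 and 8.94 at 0 h, whereas wild type liver had 5.51 and 5.86 at 24 h and 7.87 and 8.12 at 0 h. It fell by 2.31 ± 0.24 in wild type liver (adjusted p = 0.0158), and the difference was 2.54 ± 0.34 (adjusted p = 0.301, 0.0276 with the trended and robust prior). Fmo5, a flavin monooxygenase abundant in liver, read 12.18 and 12.21 in null-labelled liver at 24 h and 10.96 and 11.10 at 0 h, against 11.41 and 11.45 in wild type liver at 24 h and 11.22 and 11.34 at 0 h. It rose by 1.16 ± 0.12 in null-labelled liver (adjusted p = 0.011), with a difference of 1.01 ± 0.17 (adjusted p = 0.383, 0.0237 with the trended and robust prior). All 3 Fmo5 probe sets gave a difference between 0.96 and 1.18.

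Dbp, a circadian transcription factor whose mRNA swings widely over the day, was the lower gene with the smallest p. It read 6.01 and 5.90 in null-labelled liver at 24 h and 9.84 and 9.27 at 0 h, against 6.41 and 6.66 in wild type liver at 24 h and 7.38 and 7.44 at 0 h. The 2 null-labelled arrays at 0 h stood above all others, and the genotypes lay 2.15 apart at 0 h and -0.58 at 24 h. It fell by 3.60 ± 0.21 in null-labelled liver (adjusted p = 0.006), the wild type change was -0.87 ± 0.21 (adjusted p = 0.057), and the difference was -2.73 ± 0.30 (adjusted p = 0.301, 0.0112 with the trended and robust prior).

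Cpt1a, the carnitine palmitoyltransferase that admits fatty acids to mitochondria, was called in both responses in opposite directions. It read 9.28 and 9.19 in null-labelled liver at 24 h and 10.01 and 9.89 at 0 h, against 10.85 and 10.94 in wild type liver at 24 h and 10.19 and 10.00 at 0 h. At 0 h the genotypes were close, and at 24 h they were 1.66 apart with no overlap. It fell by 0.71 ± 0.13 in null-labelled liver (adjusted p = 0.0252) and rose by 0.80 ± 0.13 in wild type liver (adjusted p = 0.0243), a difference of -1.51 ± 0.18 (adjusted p = 0.301, 0.0112 with the trended and robust prior). The other Cpt1a probe sets gave -1.26 and -1.47.

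Apoa4, an apolipoprotein of triglyceride-rich particles, rose in both genotypes. It read 12.04 and 12.02 in null-labelled liver at 24 h and 9.78 and 9.31 at 0 h, against 12.98 and 12.84 in wild type liver at 24 h and 8.33 and 8.43 at 0 h. The null-labelled arrays started higher and ended lower, so the rise of 2.49 ± 0.18 in null-labelled liver (adjusted p = 0.00691) stood against 4.53 ± 0.18 in wild type liver (adjusted p = 0.00169), a difference of -2.04 ± 0.25 (adjusted p = 0.301, 0.0112 with the trended and robust prior). Inhbe, which encodes the activin E subunit secreted by hepatocytes, read 7.48 and 7.26 in null-labelled liver at 24 h and 7.55 and 7.30 at 0 h, against 8.46 and 8.96 in wild type liver at 24 h and 6.48 and 6.71 at 0 h. It rose by 2.12 ± 0.21 in wild type liver (adjusted p = 0.0148), the null-labelled change was -0.05, and the difference was -2.17 ± 0.30 (adjusted p = 0.301, 0.0276 with the trended and robust prior).

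The 3 other called genes fell in null-labelled liver. Gys2, the liver glycogen synthase, read 8.59 and 8.63 in null-labelled liver at 24 h and 9.88 and 9.76 at 0 h, against 9.66 and 9.55 in wild type liver at 24 h and 9.54 and 9.59 at 0 h. Only the 2 null-labelled arrays at 24 h stood apart, and the difference was -1.26 ± 0.17 (adjusted p = 0.301, 0.0237 with the trended and robust prior). Slc27a2, a fatty acid and bile acid acyl-CoA synthetase, showed the same order of groups, with 11.81 and 11.70 in null-labelled liver at 24 h and 12.56 and 12.54 at 0 h, against 12.45 and 12.53 in wild type liver at 24 h and 12.46 and 12.49 at 0 h. Its difference was small and precise, -0.82 ± 0.16 (adjusted p = 0.5, 0.0276 with the trended and robust prior). Cish, an inhibitor of cytokine receptors induced through STAT5, read 5.53 and 6.00 in null-labelled liver at 24 h and 7.16 and 7.34 at 0 h, against 7.38 and 7.09 in wild type liver at 24 h and 6.54 and 6.32 at 0 h. It fell by 1.48 ± 0.21 in null-labelled liver (adjusted p = 0.0152), and the difference was -2.29 ± 0.29 (adjusted p = 0.301, 0.0276 with the trended and robust prior).

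**Figure D2:**
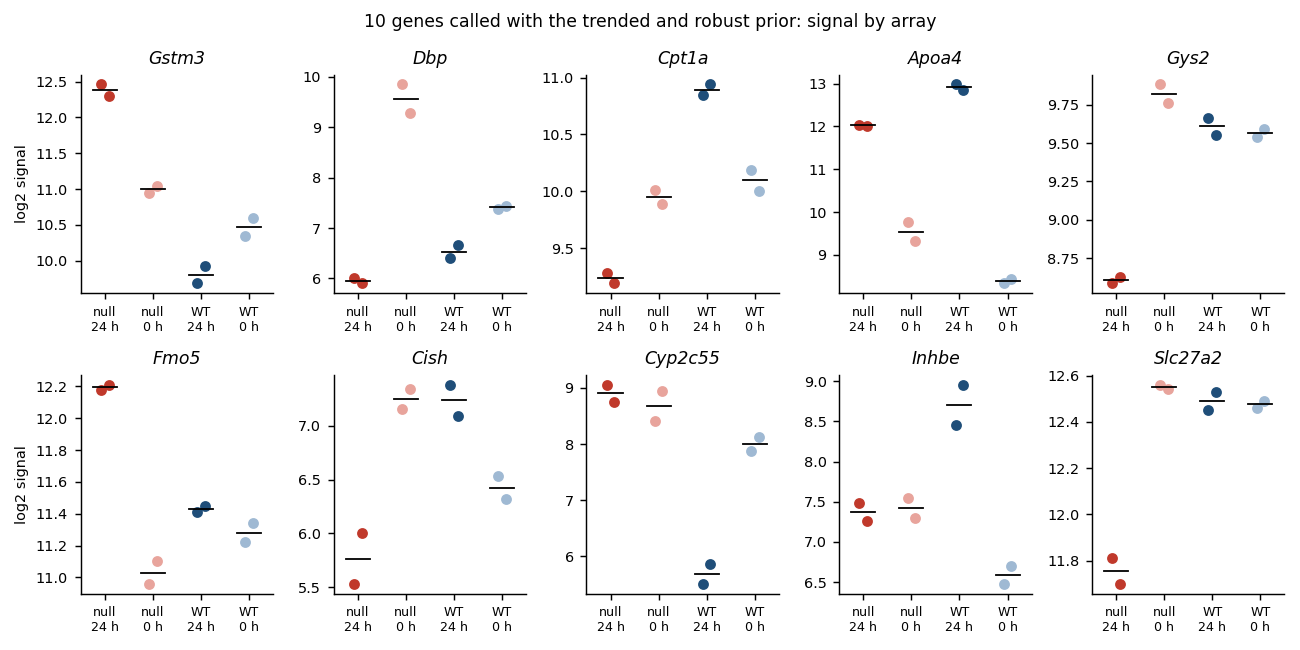
Log2 signal of the 10 genes called with the trended and robust prior, with 1 point per array, a bar at the mean of the 2 arrays of a group, and a vertical axis of its own in each panel that does not start at 0. Null-labelled and wild type 0 h arrays of Cpt1a lie close together, whereas those of Dbp are 2.15 apart.

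Gene lists are described by counts, which stand against the shares over all genes given above: at an unadjusted p under 0.05, 4.57% higher and 4.04% lower, and without overlap 13.2% higher and 11.9% lower. Called responses were 7.45% up and 7.23% down in null-labelled liver, and 4.13% up and 5.08% down in wild type liver. No member of any list passed the test of the difference. The lists were chosen with earlier results of these data known, so their shares are descriptions and no independent support. Genes of DNA replication had a median difference of 0.69. They include the helicase and its loaders, the polymerases and their clamp, and the enzymes that supply nucleotides. Of 52 tested, 45 had a higher mean response in null-labelled liver, and the median over all genes was 0.000216. Of the members, 10 had an unadjusted p under 0.05 in the higher direction (19.2%, against 4.57% of all genes) and 0 in the lower. The responses did not overlap in 22 members, all higher (13.2% of all genes were). In the single responses 25 members rose and 0 fell in null-labelled liver (7.45% of all genes rose), and 3 rose and 1 fell in wild type liver (4.13% and 5.08%).

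The difference of this list came with unequal replicates at 24 h. Set relative to each gene's mean over the arrays, the median member stood at 0.89 and 0.48 in null-labelled liver at 24 h and at -0.43 and -0.36 at 0 h, against -0.06 and 0.30 in wild type liver at 24 h and -0.41 and -0.29 at 0 h. The first wild type array at 24 h was the low one of its pair, and the first null-labelled array at 24 h the high one. Leaving out that wild type array gave a median difference of 0.48 with 5 members higher at an unadjusted p under 0.05, and leaving out that null-labelled array 0.43 with 4. Dropping either null-labelled 0 h array gave 5 or 9 such members, and dropping either wild type 0 h array 8 or 5. With the second wild type or the second null-labelled 24 h array dropped, the medians were 1.08 and 1.09, with 20 and 23 members. The median was positive in all 8 fits that left out 1 array, while its size moved by over 1.5 times with the 24 h pools kept.

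The members with the smallest p were Pcna, the sliding clamp of the polymerases, Rrm2, the regulated subunit of ribonucleotide reductase, and Orc6 of the origin recognition complex. The promoters of these 3 genes, 250 bases before to 50 bases after the start of transcription, are shown because they are the members of the list whose responses were furthest apart relative to their error. Sequences are from RefSeq on mouse build GRCm38.p6, at chr2:132253131-132253430 (minus strand) for Pcna, chr12:24708004-24708303 (plus strand) for Rrm2 and chr8:85299382-85299681 (plus strand) for Orc6, and the capitals mark a match to CCAAT on either strand.
Pcna: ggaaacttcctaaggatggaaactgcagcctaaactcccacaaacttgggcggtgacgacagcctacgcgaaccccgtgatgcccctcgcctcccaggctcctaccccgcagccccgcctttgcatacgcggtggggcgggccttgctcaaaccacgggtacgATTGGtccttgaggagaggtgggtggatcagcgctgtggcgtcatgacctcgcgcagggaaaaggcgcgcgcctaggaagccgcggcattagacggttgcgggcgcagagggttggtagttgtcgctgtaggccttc
Rrm2: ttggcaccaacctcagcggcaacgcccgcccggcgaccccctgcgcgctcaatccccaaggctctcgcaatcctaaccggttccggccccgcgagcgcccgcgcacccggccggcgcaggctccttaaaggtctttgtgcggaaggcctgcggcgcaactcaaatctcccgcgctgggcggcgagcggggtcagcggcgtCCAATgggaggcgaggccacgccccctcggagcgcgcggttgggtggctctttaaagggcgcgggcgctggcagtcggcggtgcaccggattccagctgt
Orc6: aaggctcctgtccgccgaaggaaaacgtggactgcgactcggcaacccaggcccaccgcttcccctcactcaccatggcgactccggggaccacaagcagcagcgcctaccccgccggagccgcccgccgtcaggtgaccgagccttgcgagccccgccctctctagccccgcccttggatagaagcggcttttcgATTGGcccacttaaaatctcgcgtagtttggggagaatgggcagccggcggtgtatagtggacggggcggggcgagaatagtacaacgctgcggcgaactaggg
Each window held 1 CCAAT match, starting at base 164 in Pcna, 201 in Rrm2 and 197 in Orc6, and none held TTTCCCGC or TTTGGCGC, the letters searched for sites of the E2F type. Over all 27025 promoters in the RefSeq table, 37.9% held CCAAT, 1.11% TTTCCCGC and 0.537% TTTGGCGC on either strand. Of the 45 list members with a promoter in the table, 26 held CCAAT (57.8%), 8 TTTCCCGC (17.8%) and 6 TTTGGCGC (13.3%). These are matches of letters and not measured sites.

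Pcna read 10.32 and 9.95 in null-labelled liver at 24 h and 8.60 and 8.48 at 0 h, against 8.98 and 9.35 in wild type liver at 24 h and 8.71 and 8.76 at 0 h. Both null-labelled arrays at 24 h lay above both wild type arrays at 24 h, and the 0 h arrays were close. Pcna rose by 1.60 ± 0.19 in null-labelled liver (adjusted p = 0.0114), the wild type change was 0.43 ± 0.19 (adjusted p = 0.187), and the difference was 1.16 ± 0.27 (adjusted p = 0.531). Rrm2 read 8.42 and 8.10 in null-labelled liver at 24 h and 6.02 and 6.22 at 0 h, against 7.15 and 6.46 in wild type liver at 24 h and 6.32 and 6.08 at 0 h. Its groups at 24 h did not overlap either, and its difference was 1.53 ± 0.37 (adjusted p = 0.531). Orc6 read 7.02 and 6.70 in null-labelled liver at 24 h and 5.07 and 5.01 at 0 h, against 5.74 and 6.15 in wild type liver at 24 h and 5.14 and 5.36 at 0 h, a difference of 1.13 ± 0.28 (adjusted p = 0.531). Rfc4, a subunit of the clamp loader, differed by 2.11 ± 0.61 (adjusted p = 0.543).

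The 6 subunits of the replicative helicase, Mcm2 to Mcm7, all rose in null-labelled liver, by 1.62 (Mcm3) to 4.45 (Mcm5). In wild type liver Mcm2 rose by 2.43 and Mcm5 by 2.42, and the other 4 had changes of 0.76 to 2.37 that did not pass. Their differences ranged between 0.71 (Mcm3) and 2.03 (Mcm5). At 24 h the genotypes overlapped in Mcm6, which read 9.03 and 7.67 in null-labelled liver and 6.71 and 7.98 in wild type liver. Uhrf1, which recruits the maintenance methylase to new DNA, had the largest difference of the list by size, 2.67 ± 1.22 (adjusted p = 0.601), with 0 h means below the filter limit. It read 7.67 and 5.90 in null-labelled liver at 24 h and 0.68 and 2.12 at 0 h, against 4.29 and 5.56 in wild type liver at 24 h and 2.91 and 1.52 at 0 h. Tk1, the thymidine kinase that salvages nucleotides for S phase, had a positive difference of another kind, 1.86 ± 0.61, since it fell by 2.67 in wild type liver (adjusted p = 0.0244) and changed by -0.81 in null-labelled liver (adjusted p = 0.242).

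**Figure D3:**
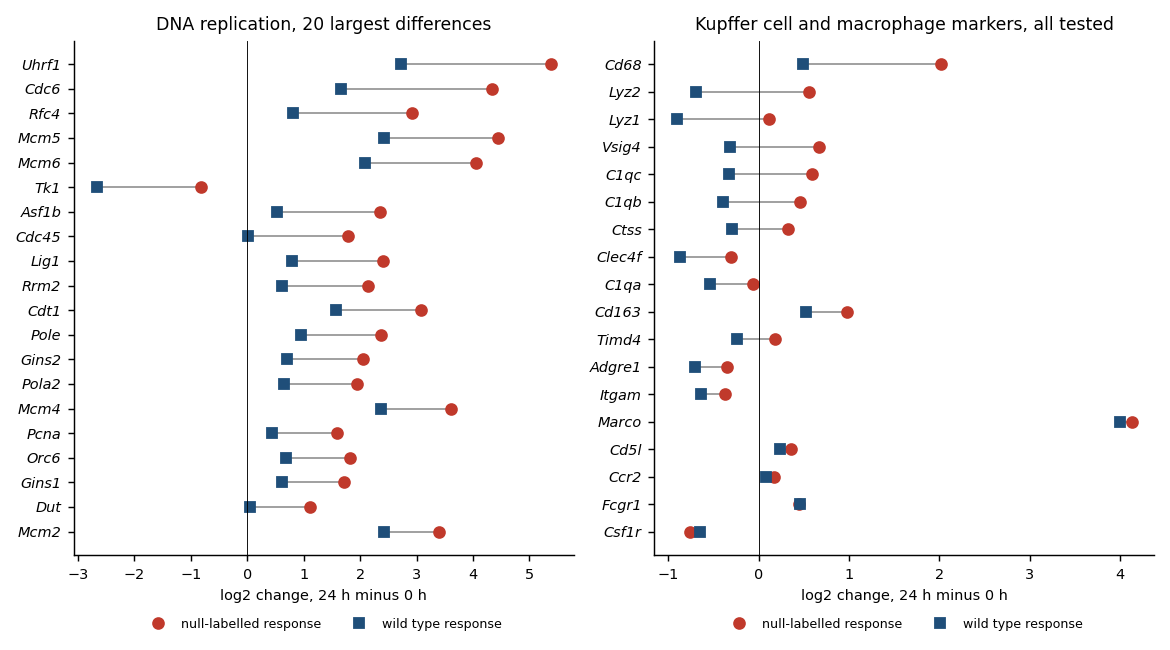
Mean change at 24 h against 0 h (log2) in null-labelled liver (circles) and wild type liver (squares), joined by a line for each gene. The left panel shows the 20 DNA replication genes with the largest positive differences, chosen by that value, and the right panel all 18 Kupffer cell and macrophage markers tested.

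Upstream of replication the picture was mixed. Among 24 regulators of the step from G1 to S phase the median difference was -0.145, with 3 members higher and 0 lower at an unadjusted p under 0.05 (0 to 3 higher with an array left out). The 3 were E2f1 (0.92 ± 0.32), a transcription factor of S phase genes, its partner Tfdp1 (0.43 ± 0.17) and Skp2 (0.99 ± 0.40), which marks the inhibitor p27 for degradation. E2f1 stood at 0.61 and Skp2 at 0.55 when the first null-labelled 24 h array was dropped. The median of the list was 0.01 with median centring, where that of all genes itself moved to 0.12. With the mean of all probe sets it was 0.02, and with an array left out -0.166 to 0.0172, so it has no settled direction. Cyclin D1 (Ccnd1), the cyclin that starts the hepatocyte cycle, read 9.94 and 9.40 in null-labelled liver at 24 h and 8.73 and 7.53 at 0 h, against 8.83 and 8.75 in wild type liver at 24 h and 6.41 and 7.18 at 0 h. Its null-labelled arrays were above the wild type arrays of the same time, and the responses were close in size, 1.54 ± 0.45 and 2.00 ± 0.45, with a difference of -0.46 ± 0.64 (adjusted p = 0.854) that turned to 0.14 with the first null-labelled 0 h array dropped. Cyclin E1 (Ccne1) differed by -0.23 ± 0.25.

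Genes of G2 phase and mitosis leaned the same way as those of replication. Of 46 tested, 35 had a positive difference, with a median of 0.37, a null-labelled median response of 0.30 and a wild type one of -0.05. At an unadjusted p under 0.05, 7 members were higher (15.2%, against 4.57% of all genes) and 0 lower, and in 11 the responses did not overlap, all higher (13.2% of all genes were). The 7 were the kinesin Kif4, Birc5, Cdk1, its binding protein Cks2, the kinetochore protein Nuf2, and the checkpoint proteins Mad2l1 and Bub1b. Left-out arrays changed that count to between 3 and 13, and the median to between 0.24 and 0.63.

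Cdk1, the kinase that drives entry into mitosis, read 7.90 and 7.22 in null-labelled liver at 24 h and 5.27 and 5.43 at 0 h, against 4.38 and 5.84 in wild type liver at 24 h and 5.04 and 5.04 at 0 h. Null-labelled liver at 24 h stood above every other array, and the 2 wild type arrays at 24 h fell on both sides of their 0 h level. It rose by 2.21 ± 0.48 in null-labelled liver (adjusted p = 0.0358), and the difference was 2.14 ± 0.68 (adjusted p = 0.556), or 1.41 with the first wild type 24 h array dropped. Birc5 (survivin), a subunit of the chromosomal passenger complex, read 5.92 and 5.10 in null-labelled liver at 24 h and 3.00 and 3.60 at 0 h, against 2.23 and 3.25 in wild type liver at 24 h and 3.05 and 3.92 at 0 h. Its difference was 2.96 ± 0.70 (adjusted p = 0.531), with 3 of 4 group means below the filter limit, and 1.51 with 16 added on the linear scale. Outside the list, the mitotic kinase Pbk differed by 3.21 ± 0.83 (1 group mean below the limit, 2.02 with 16 added) and the centromere protein Cenph by 3.25 ± 0.50 (3 below, 1.11). Cyclin A2 (Ccna2), measured by a probe set that ranged only between 6.05 and 6.66, differed by -0.35 ± 0.26, and its mean over all probe sets turned to 0.48.

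Lipid metabolism leaned the other way. Of 36 genes of fatty acid oxidation and ketogenesis, 30 had a negative difference, with a median of -0.31. The null-labelled median response was -0.16 and the wild type one 0.21. At an unadjusted p under 0.05, 6 members were lower (16.7%, against 4.04% of all genes) and 0 higher, and responses did not overlap in 17 lower and 1 higher member (11.9% and 13.2% of all genes). In null-labelled liver 1 member rose and 6 fell (7.45% and 7.23% of all genes did), and in wild type liver 5 rose and 0 fell (4.13% and 5.08%). The 6 lower members were 3 with the replicate block, or without the first null-labelled 0 h, the second wild type 24 h or the first wild type 0 h array. The median stayed between -0.41 and -0.22 when any 1 array was left out. It was -0.155 with median centring, where the median of all genes itself moved to 0.12.

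Besides Cpt1a the 6 lower members were Vnn1, Acaa1a, Ppara, Hsd17b4 and Fgf21. Ppara, the fatty acid receptor that switches on this programme in liver, read 8.58 and 7.85 in null-labelled liver at 24 h and 9.83 and 9.49 at 0 h, against 8.92 and 9.65 in wild type liver at 24 h and 9.50 and 9.46 at 0 h. It fell by 1.44 ± 0.33 in null-labelled liver (adjusted p = 0.0405), the wild type change was -0.19 ± 0.33, and the difference was -1.25 ± 0.47 (adjusted p = 0.571). Vnn1, a pantetheinase and a target of that receptor, differed by -1.33 ± 0.30, and the peroxisomal thiolase Acaa1a by -0.77 ± 0.21. Fgf21, a fasting hormone made by hepatocytes, differed by -2.10 (unadjusted p = 0.0497).

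Among 22 lipid droplet genes and lipases the median difference was -0.30, with 1 member higher and 3 lower at an unadjusted p under 0.05 (2 to 5 lower with an array left out). Pnpla2, the lipase that starts triglyceride breakdown, read 8.93 and 9.19 in null-labelled liver at 24 h and 8.70 and 8.86 at 0 h, against 10.24 and 10.01 in wild type liver at 24 h and 8.65 and 8.64 at 0 h. Its 0 h arrays were alike in both genotypes, and only wild type liver at 24 h stood apart. It rose by 1.48 ± 0.15 in wild type liver (adjusted p = 0.0155), with a difference of -1.20 ± 0.22 (adjusted p = 0.433), or -0.54 as a mean over its probe sets. The fatty acid transporter Cd36 differed by -1.31 ± 0.31 and the monoglyceride lipase Mgll by -0.67 ± 0.24, while the carboxylesterase Ces1d differed by 0.72 ± 0.27 because it fell less in null-labelled liver.

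Fatty acid and triglyceride synthesis gave a median of -0.31 over 26 genes, with 1 member higher and 5 lower at an unadjusted p under 0.05. That median was 0.01 once the second null-labelled 24 h array was dropped. The long-chain elongase Elovl5 read 10.91 and 10.81 in null-labelled liver at 24 h and 11.06 and 10.94 at 0 h, against 12.01 and 11.83 in wild type liver at 24 h and 10.97 and 11.14 at 0 h. It changed by -0.14 in null-labelled liver and rose by 0.86 ± 0.14 in wild type liver (adjusted p = 0.5 and 0.0231), and the difference was -1.0 ± 0.19 (adjusted p = 0.493). The desaturase Fads2 (-0.89 ± 0.23) and the elongase Elovl2 (-0.92 ± 0.24) of the same polyunsaturated pathway had differences of like size. Lpin1, a phosphatidate phosphatase, differed by -2.34 ± 0.66, having fallen by 2.86 in null-labelled liver (adjusted p = 0.0202).

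Cholesterol synthesis went in the opposite direction from fatty acid metabolism. Of 20 genes 17 had a positive difference, with a median of 0.61, a null-labelled median response of 0.56 and a wild type one of -0.42. At an unadjusted p under 0.05, 3 members were higher (15%, against 4.57% of all genes), and in 7 the responses did not overlap, all higher (13.2% of all genes were). The 3 became 0 without the first null-labelled 24 h array, 1 without the second null-labelled or the first wild type 0 h array, and 11 without the second wild type 24 h array. Fdps, the farnesyl diphosphate synthase, read 11.30 and 10.73 in null-labelled liver at 24 h and 10.25 and 10.09 at 0 h, against 9.90 and 10.91 in wild type liver at 24 h and 11.12 and 10.98 at 0 h. Null-labelled arrays were lower than wild type arrays at 0 h, and at 24 h the genotypes overlapped because the first wild type array was low. The difference was 1.49 ± 0.51 (adjusted p = 0.556), or 0.98 without that array. Its neighbours in the pathway, Pmvk (1.57 ± 0.47) and Idi1 (1.29 ± 0.53), also had a low first wild type array at 24 h. The median of the list was 0.25 with that array dropped and 0.97 with the second one dropped.

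**Figure D4:**
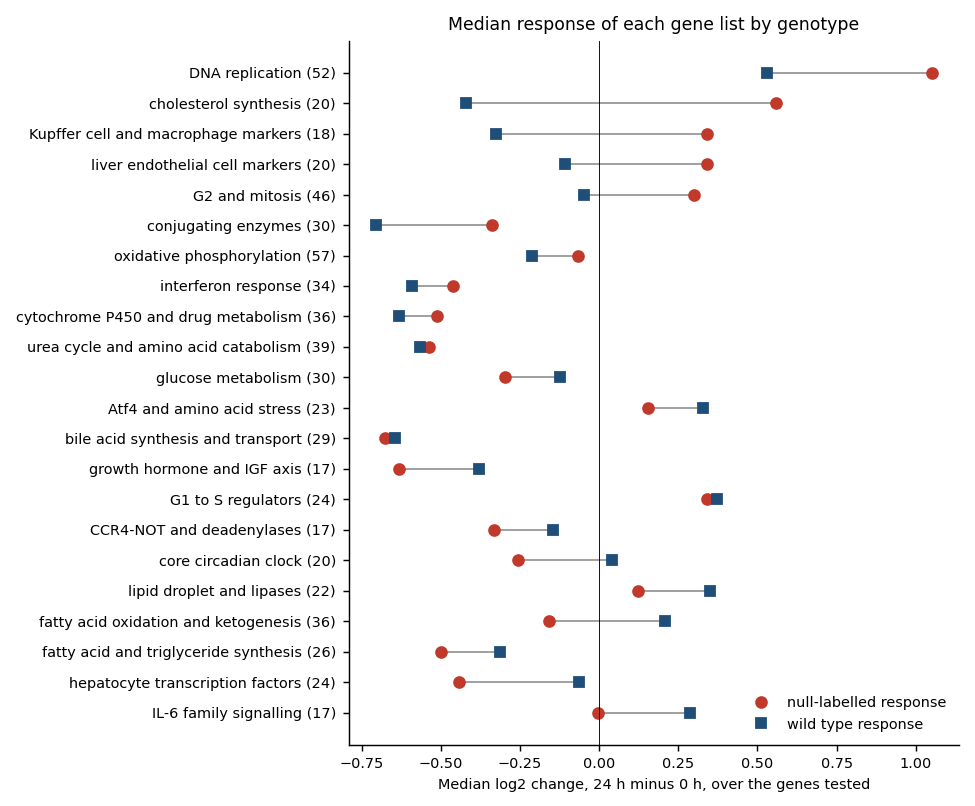
Median change at 24 h against 0 h (log2) over the tested members of 22 gene lists, in null-labelled liver (circles) and wild type liver (squares), ordered by the median difference from the top down. Counts of tested members follow each name, and DNA replication at 1.05 and 0.53 stands at the top.

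More drug-metabolising enzymes fell than rose after hepatectomy in both genotypes, and the median conjugating enzyme was less reduced in null-labelled liver. Among conjugating enzymes 5 rose and 9 fell in null-labelled liver, against 2 and 10 in wild type liver, and among cytochrome P450 genes 2 rose and 11 fell, against 1 and 10. Over all genes 7.45% rose and 7.23% fell in null-labelled liver, against 4.13% and 5.08% in wild type liver. For 30 conjugating enzymes the median response was -0.34 in null-labelled liver and -0.70 in wild type liver, and the median difference was 0.28. At an unadjusted p under 0.05, 4 were higher (13.3%, against 4.57% of all genes; 3 to 8 with an array left out) and 0 lower, all glutathione S-transferases. Besides Gstm3 these were Gstm6 (0.69 ± 0.17), Gstm2 (0.94 ± 0.26) and Gsta4 (1.61 ± 0.51), which detoxifies products of lipid peroxidation. Cross-reaction between such related transcripts is not resolved by the table. Over 36 cytochrome P450 and drug metabolism genes the median difference was 0.09, and it changed sign when the first 24 h array of null-labelled (-0.04) or of wild type liver (-0.02) was dropped. Of these, 5 were higher (13.9%, against 4.57% of all genes) and 1 lower (2.78%, against 4.04%) at an unadjusted p under 0.05, among them Cyp2u1 (1.26 ± 0.31), which fell in both genotypes, and the vitamin D 25-hydroxylase Cyp2r1 (0.84 ± 0.30).

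Alas1, the rate-limiting enzyme of haem synthesis, which supplies these cytochromes, read 11.15 and 11.55 in null-labelled liver at 24 h and 11.52 and 11.15 at 0 h, against 11.88 and 12 in wild type liver at 24 h and 9.87 and 10.21 at 0 h. It rose by 1.90 ± 0.22 in wild type liver (adjusted p = 0.0158) from the lowest level of the 4 groups, and its null-labelled change was 0.01 ± 0.22. The difference was -1.89 ± 0.31 (adjusted p = 0.383), of which 1.29 lay between the genotypes at 0 h.

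Bile acid genes had a median difference of -0.02 over 29 members, with 2 higher and 2 lower at an unadjusted p under 0.05. Abcb11, the bile salt export pump, read 9.90 and 9.87 in null-labelled liver at 24 h and 10.85 and 10.74 at 0 h, against 7.52 and 8.86 in wild type liver at 24 h and 10.65 and 10.80 at 0 h. It fell by 2.54 ± 0.40 in wild type liver (adjusted p = 0.0236), and both wild type arrays at 24 h lay below all others. The difference was 1.63 ± 0.57 (adjusted p = 0.556), or 0.96 with the first wild type 24 h array dropped. Akr1d1, a reductase of bile acid synthesis, fell in both genotypes with a difference of 1.39 ± 0.36, and the conjugate pump Abcc2 differed by -0.61 ± 0.22.

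The 39 genes of the urea cycle and amino acid breakdown had a median difference of 0.02, with 3 higher and 1 lower at an unadjusted p under 0.05. The histidine ammonia-lyase Hal differed by 2.00 ± 0.63 (1.29 with the first wild type 24 h array dropped) and the cystathionine lyase Cth by 1.42 ± 0.29. Hal fell by 2.42 and Cth by 1.41 in wild type liver (adjusted p = 0.0318 and 0.0214), and neither passed in null-labelled liver. The mitochondrial ornithine carrier Slc25a15 differed by 0.57 ± 0.18 and the peroxisomal transaminase Agxt by -0.72 ± 0.19. Over 30 genes of glucose metabolism the median was -0.00236, with 0 higher and 3 lower at an unadjusted p under 0.05. Besides Gys2 these were pyruvate carboxylase, Pcx (-0.84 ± 0.20), the entry enzyme of gluconeogenesis, and Pfkfb3 (-2.46 ± 0.62), which makes the activator of glycolysis fructose 2,6-bisphosphate. The hexokinase Hk2 stood at -0.87 ± 0.36.

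Hepatocyte transcription factors had a negative median, with no member past the test of the difference. Among 24 tested 19 had a negative difference, with a median of -0.41, and 4 were lower (16.7%, against 4.04% of all genes; 2 to 8 with an array left out) and 0 higher at an unadjusted p under 0.05. In 11 members the null-labelled responses lay wholly below the wild type ones and in 2 wholly above (11.9% and 13.2% of all genes). The median ran between -0.49 and -0.30 over the fits that left out 1 array. In null-labelled liver 0 members rose and 5 fell (7.45% and 7.23% of all genes did), and in wild type liver 2 rose and 1 fell (4.13% and 5.08%).

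Foxa2, a pioneer factor of liver genes, read 7.42 and 7.28 in null-labelled liver at 24 h and 8.16 and 8.21 at 0 h, against 7.37 and 7.52 in wild type liver at 24 h and 7.65 and 7.64 at 0 h. The groups overlapped at 24 h, and null-labelled liver was higher at 0 h. It fell by 0.83 ± 0.12 in null-labelled liver (adjusted p = 0.0163), with a difference of -0.63 ± 0.17 (adjusted p = 0.543). Its relative Foxa1 differed by -0.89 ± 0.22, and Onecut1 (HNF6), which acts with growth hormone in liver, by -2.39 ± 0.82 after falling by 2.76 in null-labelled liver (adjusted p = 0.0327). Both had a higher mean null-labelled level at 0 h, by 0.71 for Foxa1 and 1.35 for Onecut1 above wild type. The wild type 0 h arrays of Onecut1 lay far apart, at 6.52 and 7.87. Its lower null-labelled 0 h array, at 8.09, stood close to the higher of them.

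In the growth hormone and insulin-like growth factor axis, 17 genes had a median of -0.08, with 1 higher and 3 lower at an unadjusted p under 0.05. Socs2, a feedback inhibitor of the growth hormone receptor, read 4.72 and 5.42 in null-labelled liver at 24 h and 8.97 and 8.49 at 0 h, against 6.97 and 6.14 in wild type liver at 24 h and 6.49 and 8.21 at 0 h. It fell by 3.67 ± 0.61 in null-labelled liver (adjusted p = 0.0212). The wild type 0 h arrays lay far apart, and the difference was -2.87 ± 0.87 (adjusted p = 0.543), or -1.65 as a mean over its probe sets. Igfbp1, a binding protein that rises early in regeneration, read 10.75 and 10.56 in null-labelled liver at 24 h and 8.82 and 8.88 at 0 h, against 12.36 and 11.89 in wild type liver at 24 h and 11.36 and 11.55 at 0 h. It was lower in null-labelled liver at both times, rose there by 1.80 ± 0.19 (adjusted p = 0.0112), and had a difference of 1.14 ± 0.27 (adjusted p = 0.531).

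The interleukin 6 pathway, which primes hepatocytes for division, had a median of -0.60 over 17 genes, with 1 higher and 5 lower at an unadjusted p under 0.05 (29.4% lower, against 4.04% of all genes). The 5 lower were Socs2, the kinase Pim3 (-0.69 ± 0.27), Stat3, the NF-kappaB regulator Bcl3 and the kinase Jak1. Only 1 was lower with the deposited scaling, with median centring or with no filter, and 2 with the mean of all probe sets. The count stayed at 5 with the filter at the 60th percentile, the trended and robust prior or 16 added on the linear scale. The lower count ran between 0 and 5 with an array left out: with the first wild type 24 h array dropped 0 were lower and the median was -0.39. Stat3, the transcription factor that the pathway activates, read 8.64 and 8.74 in null-labelled liver at 24 h and 8.65 and 8.66 at 0 h, against 9.33 and 9.14 in wild type liver at 24 h and 8.72 and 8.79 at 0 h, a difference of -0.45 ± 0.18 (adjusted p = 0.574). The higher gene was Il22ra1, a receptor chain for interleukin 22. It read 5.21 and 5.81 in null-labelled liver at 24 h and 0.52 and 1.06 at 0 h, against 5.46 and 5.65 in wild type liver at 24 h and 3.61 and 3.73 at 0 h. Levels were alike at 24 h and the difference of 2.84 ± 0.37 (adjusted p = 0.301) came from 0 h, where the null-labelled arrays lay below the filter limit, and it was 0.67 with 16 added on the linear scale.

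Of 20 clock genes 2 were higher and 3 lower at an unadjusted p under 0.05 (0 to 2 and 2 to 5 with an array left out), with a median of -0.28. Per1, a clock repressor, read 5.88 and 6.83 in null-labelled liver at 24 h and 7.17 and 6.91 at 0 h, against 7.12 and 6.40 in wild type liver at 24 h and 5.42 and 5.55 at 0 h. Its null-labelled level was 1.56 above wild type at 0 h, and the difference was -1.97 ± 0.52 (adjusted p = 0.543). Bhlhe40, another repressor of the clock, differed by -1.75 ± 0.60. Arntl (BMAL1), the activator that peaks opposite to Dbp and Per1, differed by 1.25 ± 0.41 and was -1.05 against wild type at 0 h, but its mean over all probe sets gave 0.29.

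Genes of stress and of RNA decay had more members lower than higher at an unadjusted p under 0.05. Among 23 genes of Atf4 and amino acid stress the median was -0.01, with 2 higher and 4 lower at an unadjusted p under 0.05 (8.7% and 17.4%, against 4.57% and 4.04% of all genes; 1 to 4 lower with an array left out). Ddit3 (CHOP) differed by -1.12 ± 0.25. Its mean was 6.07 in both genotypes at 24 h, and the difference came from 0 h, where null-labelled liver was 1.12 above wild type. The glutathione-degrading enzyme Chac1 differed by -1.62 ± 0.54 and the transaminase Gpt2 by -1.12 ± 0.38, while the serine synthesis enzyme Psph differed by 0.94 ± 0.22. A further list held 17 genes of the CCR4-NOT complex, which Tob1 binds, and of other deadenylases. Its median was -0.25, with 0 higher and 3 lower at an unadjusted p under 0.05 (17.6% lower, against 4.04% of all genes). The count of lower members was 0 with median centring, or without the first null-labelled 0 h array or either wild type 0 h array. With the mean of all probe sets it was also 0, with 1 member higher and a median of -0.09. It was 1 with the deposited scaling or no filter, and 5 with the filter at the 60th percentile, the trended and robust prior or 16 added. The 3 lower members were Pan3 (-0.56 ± 0.21), a subunit of the other main deadenylase, Cnot4 (-0.42 ± 0.16) and Cnot7 (-0.43 ± 0.16), the catalytic subunit to which TOB proteins bind. The mean over all Cnot7 probe sets was 0.05, and the cytoplasmic poly(A) binding protein Pabpc1 stood at -0.58 ± 0.24.

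Oxidative phosphorylation had a small positive median shared by many genes. Of 57 tested, 48 had a positive difference with a median of 0.145, and in 28 the null-labelled responses lay wholly above the wild type ones (13.2% of all genes did). No member was higher and 1 was lower at an unadjusted p under 0.05, namely Cox7c (-0.91 ± 0.34). Its probe set was dim, with 1 group mean below the filter limit, and another Cox7c probe set, which failed the filter, gave 0.87. The higher members with the smallest p included Ndufv2 of complex I (0.33 ± 0.15) and Cox5a of complex IV (0.37 ± 0.18), and the other Ndufv2 probe sets gave 0.0898 and 0.0455. Scaling can move a value of this size, since median centring moved the list to 0.27 and all genes to 0.12. Among 34 interferon response genes the median was 0.09, with 2 higher and 0 lower at an unadjusted p under 0.05. These were Oasl1 (1.5 ± 0.34) and Usp18 (1.02 ± 0.24), which fell by 1.12 in wild type liver (adjusted p = 0.0219). The remaining 18 lists had medians between -0.239 (ribosome biogenesis) and 0.282 (Nrf2 targets), with 0 to 3 members higher and 0 to 2 lower at an unadjusted p under 0.05.

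Markers of macrophages had a positive median difference, with 0 of 18 past the test. Kupffer cells are the resident macrophages of the liver and a source of interleukin 6 after hepatectomy. Of 18 markers 16 had a positive difference, with a median of 0.46, and 8 were higher and 0 lower at an unadjusted p under 0.05 (44.4%, against 4.57% of all genes). These 8 were Cd68, Lyz2, Lyz1, Vsig4, C1qa, C1qb, C1qc and Ctss. The median response was 0.34 in null-labelled liver and -0.325 in wild type liver. Leaving out 1 array gave medians of 0.37 to 0.70 and 3 to 10 such members.

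Cd68, a lysosomal glycoprotein of macrophages, read 6.79 and 6.84 in null-labelled liver at 24 h and 4.97 and 4.64 at 0 h, against 6.24 and 6.22 in wild type liver at 24 h and 5.77 and 5.70 at 0 h. Its null-labelled arrays were the lowest at 0 h and the highest at 24 h. It rose by 2.02 ± 0.14 in null-labelled liver (adjusted p = 0.00691), the wild type change was 0.50 ± 0.14 (adjusted p = 0.0836), and the difference was 1.52 ± 0.20 (adjusted p = 0.301). Vsig4, a complement receptor of Kupffer cells, read 8.29 and 8.07 in null-labelled liver at 24 h and 7.49 and 7.53 at 0 h, against 7.43 and 8.02 in wild type liver at 24 h and 8.10 and 7.99 at 0 h, a difference of 0.99 ± 0.30 (adjusted p = 0.543). Lyz2 differed by 1.25 ± 0.33 and Lyz1 by 1.02 ± 0.30, and these lysozymes are close paralogs whose probes may read each other's transcripts. The other Lyz1 probe sets disagreed, with 1.16 in the brighter and -1.29 in a dim one at a mean level of 3.28. Over the alternatives the Lyz1 difference went as low as 0.294, so its place among the 8 depends on the probe set. Other defining markers had smaller differences: Clec4f 0.57 (unadjusted p = 0.13), Cd5l 0.12, and Csf1r, the receptor that macrophages need to survive, -0.11. The scavenger receptor Marco rose by 4.13 in null-labelled and by 4.001 in wild type liver, a difference of 0.13 ± 0.42.

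Summed on the linear scale, the whole marker list was higher at 24 h than at 0 h in null-labelled liver, while its wild type ranges at the 2 times overlapped. Its summed level was 4576 to 5052 in null-labelled liver at 24 h and 4035 to 4079 at 0 h, against 3424 to 4278 in wild type liver at 24 h and 4223 to 4880 at 0 h. Liver endothelial markers had a median difference of 0.37 over 20 genes, with 2 higher (10%, against 4.57% of all genes) and 0 lower at an unadjusted p under 0.05, Oit3 (0.85 ± 0.33) and Ehd3 (1.10 ± 0.43, or 0.62 with the first wild type 24 h array dropped). That count was 0 with the replicate block, or without the second null-labelled 24 h, the first null-labelled 0 h or the first wild type 0 h array, 1 without the first 24 h array of either genotype or the second wild type 0 h array, and 8 without the second wild type 24 h array. Their sum was 2808 to 2998 in null-labelled liver at 24 h and 2231 to 2684 at 0 h, against 2338 to 3009 in wild type liver at 24 h and 3115 to 3282 at 0 h. No marker of either list was at the floor in all arrays. The part of these cells in the differences of the other gene lists, and the part of the first wild type array at 24 h, which was the lower of its pair in replication, cholesterol and macrophage genes and in Abcb11, was not tested.

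**Figure D5:**
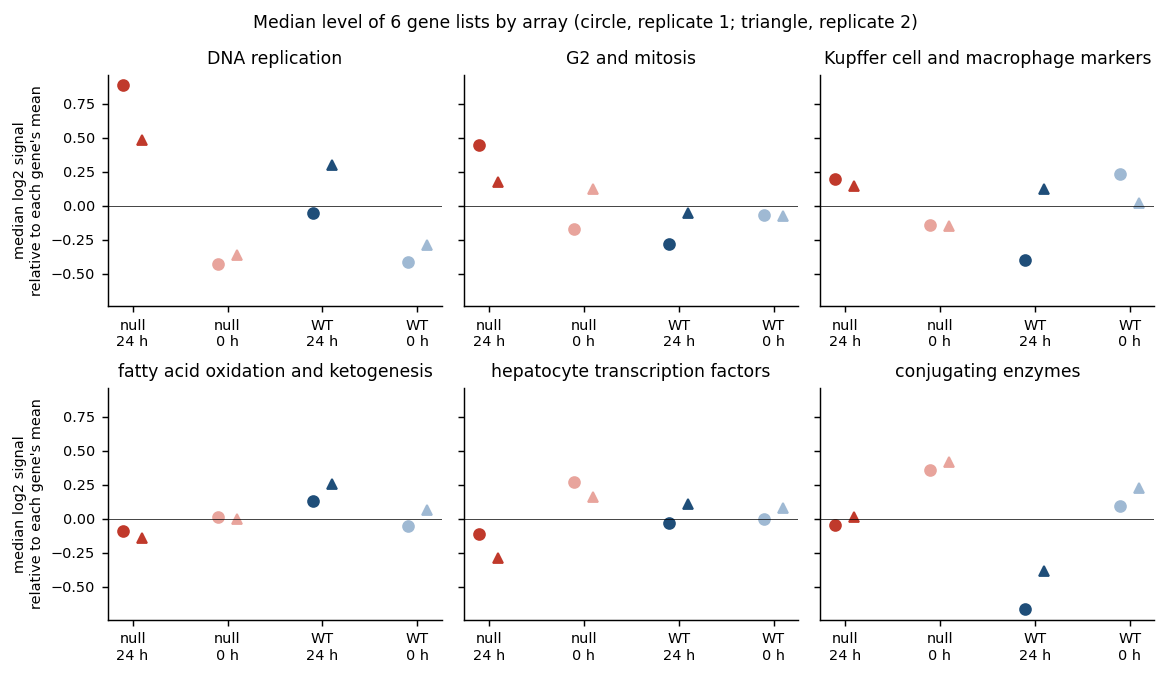
Median log2 signal of 6 gene lists in each array, relative to each gene's mean over the arrays, with circles for replicate 1 and triangles for replicate 2. In DNA replication the null-labelled arrays at 24 h lie at 0.89 and 0.48 and the wild type arrays at 24 h at -0.06 and 0.30.

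Further genes with the smallest p in the difference fell outside these lists. Il21r, the interleukin 21 receptor, had the smallest p of all (2.8e-05) and was called in opposite directions. It read 4.0 and 3.85 in null-labelled liver at 24 h and 2.61 and 2.77 at 0 h, against 2.39 and 2.62 in wild type liver at 24 h and 4.03 and 4.45 at 0 h. It rose by 1.24 ± 0.18 in null-labelled liver (adjusted p = 0.0172) and fell by 1.73 ± 0.18 in wild type liver (adjusted p = 0.0158), a difference of 2.96 ± 0.26 (adjusted p = 0.301). It is a dim gene, with 2 group means below the filter limit, and with 16 added on the linear scale the difference was 1.16. Pramel32, of the PRAME family, was the third gene called in opposite directions, with a difference of -1.57 ± 0.17 (adjusted p = 0.301) at levels between 3.75 and 4.68.

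Higher differences at brighter levels were found in Fabp7, a fatty acid binding protein best known from brain, and Gtf2e1, a subunit of the general transcription factor TFIIE. Fabp7 read 7.34 and 7.16 in null-labelled liver at 24 h and 4.67 and 4.50 at 0 h, against 6.99 and 7.17 in wild type liver at 24 h and 5.85 and 5.88 at 0 h. It rose in both genotypes and ended alike, and the difference of 1.45 ± 0.20 (adjusted p = 0.301) matched the gap of -1.28 at 0 h. Gtf2e1 rose by 1.23 ± 0.11 in null-labelled liver and changed by 0.26 in wild type liver (adjusted p = 0.00948 and 0.175), with a difference of 0.97 ± 0.15 (adjusted p = 0.383). Tnfaip8 (1.35 ± 0.18), a regulator of cell survival, the Wnt modulator relative Dkk3 (1.60 ± 0.22), the phospholipase Plb1 (2.55 ± 0.36) and the transporter Slc35f3 (1.87 ± 0.28) were dim. With 16 added the differences were 0.75 for Tnfaip8, 0.51 for Dkk3, 0.80 for Plb1 and 0.63 for Slc35f3. All of these stood further from wild type at 0 h than at 24 h. Null-labelled minus wild type was -0.94 and 0.41 for Tnfaip8, and -1.24 and 0.36 for Dkk3. For Plb1 it was -2.48 and 0.07, and for Slc35f3 -1.72 and 0.15.

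Lower differences were found in the polo-like kinase Plk3 and in Arhgef26. Plk3 read 6.10 and 5.92 in null-labelled liver at 24 h and 6.87 and 6.79 at 0 h, against 8.23 and 7.45 in wild type liver at 24 h and 6.48 and 6.37 at 0 h. It rose by 1.42 ± 0.26 in wild type liver (adjusted p = 0.03), with a difference of -2.24 ± 0.36 (adjusted p = 0.383). Arhgef26 fell by 0.85 ± 0.12 in null-labelled liver (adjusted p = 0.0149), with a difference of -1.02 ± 0.17. Cbx7, a Polycomb protein, stood at -1.51 ± 0.18, but at -0.35 as a mean over its probe sets, and the transposase-derived gene Pgbd5 at -3.47 ± 0.54, or -1.32 with 16 added.

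Among genes called in a response whose responses did not overlap, the largest positive difference in the fit described above was that of Clec2h, a C-type lectin gene. It read 6.73 and 6.16 in null-labelled liver at 24 h and 7.94 and 8.57 at 0 h, against 1.70 and 3.01 in wild type liver at 24 h and 8.06 and 7.93 at 0 h. It fell by 5.64 ± 0.46 in wild type liver (adjusted p = 0.0111), the null-labelled change was -1.81 ± 0.46 (adjusted p = 0.0521), and the difference was 3.83 ± 0.66 (adjusted p = 0.422). The wild type 24 h mean lay below the filter limit, and with 16 added the difference was 2.02. Its other 2 probe sets gave 1.33 and 2.93. Cib3, a calcium-binding protein, differed by 3.07 ± 0.55. The largest negative differences by this rule, besides Pgbd5 and Socs2, were in Lyrm7, Zfp786, Igdcc4 and Tmem139, at -3.09 to -2.81, each with at least 2 group means below the filter limit. Of the 82 other probe sets of the named genes that passed the filter, 67 had a difference of the same sign as the probe set that stood for the gene.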

How the data were processed

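Liver RNA was measured on 8 Affymetrix arrays, 2 pools for each of 4 groups. The deposited values are log2 signals, as read from the values themselves, and no algorithm for them was given in the sources used here. Probe sets were named through the platform annotation (34945 had 1 symbol, 932 several and 9160 none). Array percentiles differed by up to 0.619, so the arrays were brought to a common distribution by quantile normalization. Low probe sets were removed (2 arrays or more had to exceed their own 40th percentile, a limit of 3.60 after normalization), and the probe set with the highest mean stood for its gene. Probe sets with no symbol or several (5008 past the filter, 0 called) were tested apart.

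A mean per group was fitted with limma 3.58.1 in R 4.3.3 (4 residual and 2.01 prior degrees of freedom), and two-sided p-values were adjusted by Benjamini-Hochberg over all genes. The number of arrays limits the precision. Same-numbered arrays did not deviate together (correlations of deviations -0.197 to 0.051), so the numbers were not taken as pairs. The procedure was tested on simulated data.

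The members and the 40 gene lists were chosen with earlier results of these data known. Named genes were the 12 with the smallest p in each direction (none having passed), those called in opposite directions in the 2 responses, the 6 largest differences in each direction among called genes without overlap, up to 4 members of each of 22 lists by smallest p, and Tob1, Ccnd1, Cdk1, Ccna2 and Ccne1. Predicted genes were skipped, and some list members outside this rule were named after their values were seen. The alternatives were the deposited scaling, median centring, other filters, other rules for probe sets, array weights, the trended and robust prior, 16 added on the linear scale, a replicate block, other thresholds and leaving out each array.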

Additional observations from a re-analysis of the deposited data

Results flagged for a closer look

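In 31 of the 112 genes named by rule, every array of 1 genotype moved opposite to every array of the other. Both null-labelled 24 h arrays lay on 1 side of both null-labelled 0 h arrays, and both wild type 24 h arrays lay on the other side of theirs. Over all genes 331 (2.29%) did so with the null-labelled response up and 310 (2.15%) with it down. Most named genes were chosen by a small p or a large difference in this same comparison. A higher share among them therefore follows from the choice and is no further result. The limma test of the difference did not pass for any of them. Up in null-labelled and down in wild type liver were Il21r (difference 2.96), Gstm3 (2.05), Tnfaip8 (1.35), Slc35f3 (1.87), Cib3 (3.07), Kif4 (1.01), Pmvk (1.57), Fdps (1.49), Cyp2r1 (0.844), Ndufv2 (0.33), Atp5l (0.325), Oasl1 (1.5), Ddx58 (0.532), Lyz2 (1.25), Ehd3 (1.1) and Stab2 (0.764). Down in null-labelled and up in wild type liver were Pramel32 (-1.57), Cbx7 (-1.51), Cpt1a (-1.51), Cish (-2.29), Plk3 (-2.24), Arhgef26 (-1.02), Vnn1 (-1.33), Elovl5 (-1.0), Elovl2 (-0.924), Pcx (-0.836), Pfkfb3 (-2.46), Per1 (-1.97), Foxa1 (-0.886), Ddit3 (-1.12) and Cnot7 (-0.432).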

How the results depend on the processing

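The count of genes called in the difference between responses was 0 under every alternative run except the trended and robust prior, which called 10. The count at an unadjusted p under 0.05 was 851 to 1565 over the fits that left out 1 array (451 to 895 higher, 351 to 725 lower), and 2433 (1267 higher, 1166 lower) when every probe set was tested. Median centring turned the split of 660 higher and 584 lower to 783 higher and 293 lower. Non-overlapping responses numbered 7239 with every probe set and 5277 to 6573 with an array left out, where fewer arrays can overlap. The replicate block gave 1086 genes at an unadjusted p under 0.05 and 0 after adjustment. In the single responses the block gave 903 calls in null-labelled and 332 in wild type liver, the trended and robust prior 3204 and 2592, no filter 1026 and 542, an adjusted p under 0.1 3808 and 2863, and one under 0.01 51 and 16. Calls in null-labelled liver were 3289 with every probe set and 23 to 1749 with an array left out, and those in wild type liver 806 with median centring, 2346 with a filter at the 60th percentile, 2170 with 16 added, and 3 to 1382 with an array left out. The lowest counts were without a 0 h array of the same genotype. Of 2003 pairs of a named gene and an alternative, 1993 kept their direction. The mean over all probe sets reversed Cnot7 (0.0485), Ddx58 (-0.42), Ccna2 (0.485), Ccne1 (0.0477) and Tob1 (-0.0145). With 1 array left out, Tob1 ranged between -0.144 and 0.188, reversed in 4 fits (-0.144, -0.017, -0.0114 and -0.0103), and Ccnd1 between -1.06 and 0.144, reversed in 1 fit. The cause of these changes was not tested. With 2 pools a group, and an SE that grows at low signal, differences of dim genes are the least certain.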
